A study of Mus musculus with 12 samples.

Results

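Lungs of mice on a 60% fat diet were compared with lungs of mice on a 10% fat diet, all kept in more than 95% oxygen. RNA sequencing gave 3 libraries for each diet. Genes were taken if their level reached an RPKM of 1 in at least 3 of the 12 libraries of the study. RPKM is the read number of a gene scaled by its transcript length and by the library's total. This rule kept 13334 of 20793 genes or transcripts, and 13324 of them had enough values for a test. All samples were flash-frozen lung of C57BL/6J, an inbred laboratory mouse strain, and the diets lasted 12 weeks. The 10% fat lungs under oxygen were the control here, so oxygen is common to both sides and its own effect is not part of the comparison. A further 6 libraries, 3 for each diet in room air, entered the estimate of the spread and gave the diet difference without oxygen. The labels name no animal for a sample and no length of exposure, and the order of diet and exposure cannot be read from them with certainty. P-values therefore rest on the scatter among these libraries, and that scatter may be technical.

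Breathing almost pure oxygen injures the lung through reactive oxygen species. The capillary endothelium is an early target, and the alveolar and airway epithelium follows. A diet rich in fat makes C57BL/6J mice obese, and obesity alters lipid handling, circulating hormones and immune cells in many organs. The study asked how obesity from diet bears on this injury.

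The tissue label was met by the data. The 6 oxygen libraries held 8603 to 13868 RPKM of Sftpc, the surfactant protein C gene of alveolar type 2 cells. They held 1099 to 1527 RPKM of Ager, a marker of alveolar type 1 cells, and 193 to 234 RPKM of the endothelial adhesion gene Pecam1. Rough depths, inferred from the spacing of the lowest RPKM values, ran from 21.1 to 23.8 M reads in the oxygen libraries. Pearson's r across genes between libraries of one diet was at least 0.9902 under oxygen.

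The diet difference under oxygen was small for most genes and passed the strict test in a single gene. limma, a linear model with variances shared across genes, called 1 gene of 13324 (0.00751%) at a Benjamini-Hochberg adjusted p under 0.05. It was Dbn1, which was higher on 60% fat. No gene was called lower. An unadjusted p under 0.05 was reached by 1076 genes (8.08%), 614 higher (4.61%) and 462 lower genes (3.47%). Libraries with equal replicate numbers deviated together, and fitting the number as a block raised the count to 102 genes (0.766%), 31 higher (0.233%) and 71 lower (0.533%). In the text a blocked adjusted p is that of this fit. All 102 differed in the same direction in all 3 equal-numbered pairs, and in 84 of them the 3 libraries of one diet did not overlap the 3 of the other. The call itself rests on how alike the pair differences are, so neither count is added support for it. Over all tested genes, 18.2% showed no overlap, 11.6% higher and 6.58% lower. A positive difference was found in 7789 of the 13324 tested genes, and counts over lists are to be read against these shares. The lists and members were chosen with earlier results of these data known, so a count above these shares is a description and not a test. The size of the log2 difference among the 102 had a median of 0.585 and a minimum of 0.299, and 9 genes reached 2-fold. The blocked count rested on all 3 pairs. It was 2 without the libraries numbered 1 (Gap43 and Rpl34-ps1), 9 without those numbered 2 and 4 without those numbered 3 (Sec14l4, Gap43, Col8a1 and Ifitm6), genes named here after their values were seen. On the 6 oxygen libraries alone the block called 385 genes (2.89%), 170 higher (1.28%) and 215 lower (1.61%). A call with the block means below one in the fit of all 12 libraries, and the adjusted p of the smaller fit is given as that of the oxygen libraries alone where it puts a gene described as not called on the other side of the threshold.

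**Figure D1:**
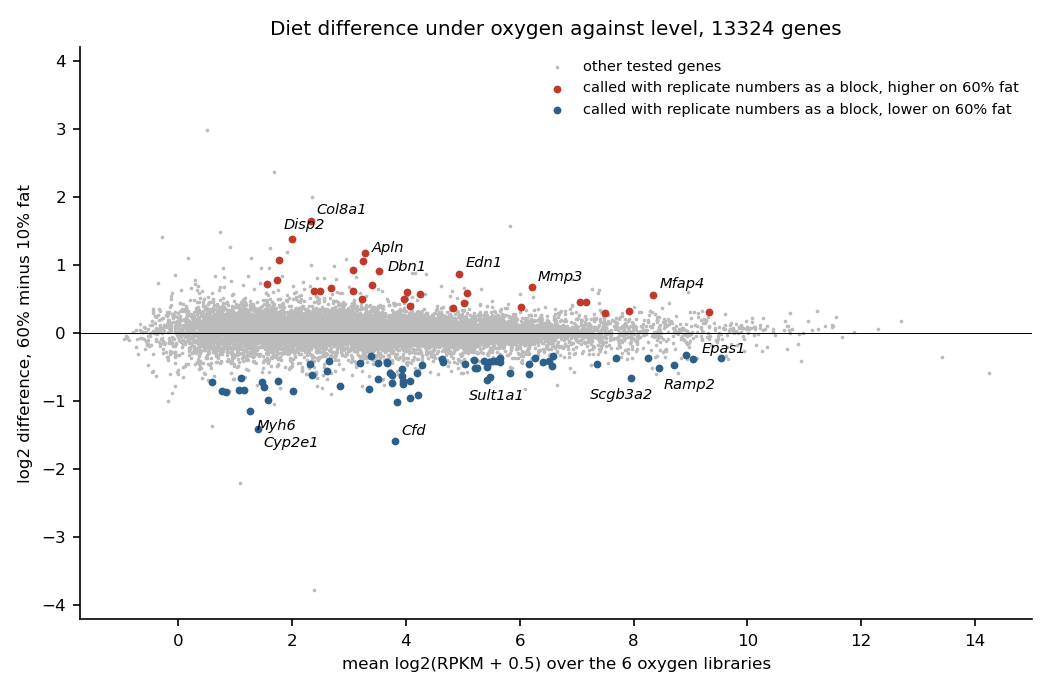
Log2 difference between 60% and 10% fat under oxygen (y axis) against the mean log2(RPKM + 0.5) of the 6 oxygen libraries (x axis) for 13324 genes. Red points are the 31 genes called higher and blue points the 71 called lower with replicate numbers as a block, grey points all others; most genes lie close to 0 and several of the widest differences, at low level, were not called.

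The genes higher on 60% fat are described first. The naming rule, given below, filled each direction only with genes whose groups did not overlap. For genes named that way the lack of overlap is therefore no added support. Dbn1 (chromosome 13, 55574788 to 55589437) encodes drebrin, a protein that binds and bundles actin filaments. Positions are printed as the deposited table has them, in build mm8 or mm9, since the submitters' notes name both. Folds and log2 differences are computed after adding 0.5 to each RPKM, which understates those of low genes. Dbn1 levels were 17.2, 15.5 and 13.5 RPKM in 60% fat lungs, against 7.56, 8.82 and 7.45 RPKM in 10% fat lungs. The lowest 60% fat library stood well above the highest 10% fat library. The mean was 15.4 ± 1.86 RPKM in 60% fat lungs and 7.94 ± 0.76 RPKM in 10% fat lungs (SD, n = 3 each), a rise of 1.88-fold (log2 0.91 ± 0.11 SE, limma adjusted p = 0.0443, blocked adjusted p = 0.0115). The call ended without replicate 1 of the 60% fat lungs (adjusted p = 0.19), without their replicate 2 (0.26) and without replicate 1 (0.255) or 3 (0.269) of the 10% fat lungs. It also ended without replicate 1 (0.0722), 2 (0.0694) or 3 (0.0819) of the 60% fat room-air lungs and without replicate 2 of the 10% fat room-air lungs (0.0777).

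Col8a1 (chromosome 16, 57624368 to 57754850) encodes a chain of type VIII collagen, a matrix protein found beneath vascular endothelium. It stood at 10.1, 10.4 and 5.56 RPKM in 60% fat lungs and at 2.47, 2.48 and 2.06 RPKM in 10% fat lungs. The groups lay far apart, with replicate 3 of the 60% fat lungs nearest to the 10% fat lungs. The difference was 3.14-fold (log2 1.65 ± 0.26, adjusted p = 0.0575, blocked adjusted p = 0.0042). Mmp3 (chromosome 9, 7445821 to 7455974) encodes stromelysin-1, a protease that degrades matrix. It reached 94.5, 88.3 and 97.0 RPKM on 60% fat and 53.5, 64.8 and 56.4 RPKM on 10% fat, again without overlap (log2 0.68 ± 0.14, adjusted p = 0.204, blocked adjusted p = 0.0313).

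The list of 31 matrix and TGF-beta response genes held 10 whose groups did not overlap upwards and 1 downwards (11.6% and 6.58% of all tested genes). Its median log2 difference was 0.09 against 0.03 for all genes. One member was called with the block, Mfap4, which encodes a glycoprotein of elastic fibres. Its levels were 375, 476 and 344 RPKM on 60% fat and 266, 294 and 240 RPKM on 10% fat (log2 0.57 ± 0.17, adjusted p = 0.42, blocked adjusted p = 0.0344). In room air the Mfap4 difference was larger, at 1113, 905 and 685 RPKM on 60% fat and 403, 313 and 329 RPKM on 10% fat (log2 1.35 ± 0.17, adjusted p = 0.0138, blocked adjusted p = 0.00154). Its interaction, the difference under oxygen minus that in room air, was −0.78 ± 0.24 (adjusted p = 0.301, blocked adjusted p = 0.0346). The matrix glycoprotein gene Tnc stood at 12.3, 12.7 and 8.56 RPKM in 60% fat lungs against 6.46, 6.45 and 5.20 RPKM in 10% fat lungs, without overlap and without a call in the 12 libraries (log2 0.83 ± 0.21, adjusted p = 0.331, blocked adjusted p = 0.106, oxygen libraries alone adjusted p = 0.0096). Further genes called higher with the block, named after their values were seen, were Itga2 (log2 0.66), an integrin subunit that binds collagen, and the actin regulators Cald1 (0.46) and Tpm4 (0.31). The chemokine gene Cxcl12 was among them as well (0.59, blocked adjusted p = 0.00841). In room air Cxcl12 was also called higher on 60% fat with the block (log2 0.42, adjusted p = 0.226, blocked adjusted p = 0.0108).

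Genes of blood vessels went in both directions. Edn1 (chromosome 13, 42396638 to 42403358) encodes the precursor of endothelin-1, a vasoconstrictor made by endothelial cells. Its levels were 44.6, 41.3 and 36.9 RPKM in 60% fat lungs against 21.9, 27.5 and 17.8 RPKM in 10% fat lungs. Every 60% fat library exceeded every 10% fat library (1.83-fold, log2 0.87 ± 0.16, adjusted p = 0.133, blocked adjusted p = 0.0224). Procr encodes the endothelial protein C receptor, which acts in anticoagulation. It stood at 14.6, 11.3 and 8.37 RPKM in 60% fat lungs against 5.95, 6.43 and 4.61 RPKM in 10% fat lungs (log2 0.93 ± 0.18, adjusted p = 0.154, blocked adjusted p = 0.0283). Apln (chromosome X, 45378322 to 45388029), the gene of the peptide apelin, a ligand made by sprouting endothelium, was named after its values were seen. It had 17.1, 14.2 and 9.69 RPKM on 60% fat and 5.98, 8.35 and 4.52 RPKM on 10% fat (2.09-fold, blocked adjusted p = 0.0283). Procr and Apln did not overlap between the diets either.

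Angpt2, which encodes a ligand that opposes signalling by the endothelial receptor TEK, was also called higher with the block (log2 0.62, blocked adjusted p = 0.0469), while Tek itself was called lower. Tek had 27.1, 33.1 and 32.4 RPKM in 60% fat lungs and 42.2, 42.0 and 48.1 RPKM in 10% fat lungs (log2 −0.51 ± 0.17, adjusted p = 0.445, blocked adjusted p = 0.0399). Ramp2 (chromosome 11, 101107647 to 101109564) encodes a partner protein that turns the receptor CALCRL into one for the vasodilator adrenomedullin. It stood at 264, 323 and 294 RPKM in 60% fat lungs, against 404, 441 and 411 RPKM in 10% fat lungs. All 60% fat values lay below all 10% fat values (1.43-fold lower, log2 −0.51 ± 0.10, adjusted p = 0.18, blocked adjusted p = 0.0344). Car4, a carbonic anhydrase of lung capillaries, had 82.7, 77.8 and 76.9 RPKM in 60% fat lungs against 104, 112 and 119 RPKM in 10% fat lungs (log2 −0.49 ± 0.10, blocked adjusted p = 0.0358). Epas1 (chromosome 17, 87153203 to 87232750), the gene of the oxygen-regulated factor HIF-2α, is another gene picked by its values. It stood at 409, 473 and 510 RPKM in 60% fat lungs against 561, 588 and 664 RPKM in 10% fat lungs (log2 −0.38 ± 0.10, blocked adjusted p = 0.0283).

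Of 17 tested genes of renin-angiotensin, endothelin and natriuretic signalling, 12 had a negative difference. Wholly below the 10% fat lungs lay 7, and 1, Edn1, lay wholly above (6.58% and 11.6% of all tested genes). Ace, which makes angiotensin II, had 182, 205 and 231 RPKM on 60% fat and 252, 264 and 290 RPKM on 10% fat (log2 −0.38 ± 0.14, adjusted p = 0.509, blocked adjusted p = 0.079). The diets did not overlap, and the gene was not called in the 12 libraries but with the block on the oxygen libraries alone (adjusted p = 0.0171). The list's median was −0.15 under oxygen and 0.18 in room air. Among 25 endothelial markers 9 stood wholly lower and 3 wholly higher (6.58% and 11.6% of all tested genes), the 3 being near that share. The median of these markers was −0.08, and the called members were Car4 and Tek. The summed RPKM of these markers was 2550 to 2558 in 60% fat lungs and 2405 to 2688 in 10% fat lungs, so the markers as a whole overlapped. In RNA of a whole organ, fewer cells of a type and less RNA per cell cannot be told apart.

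**Figure D2:**
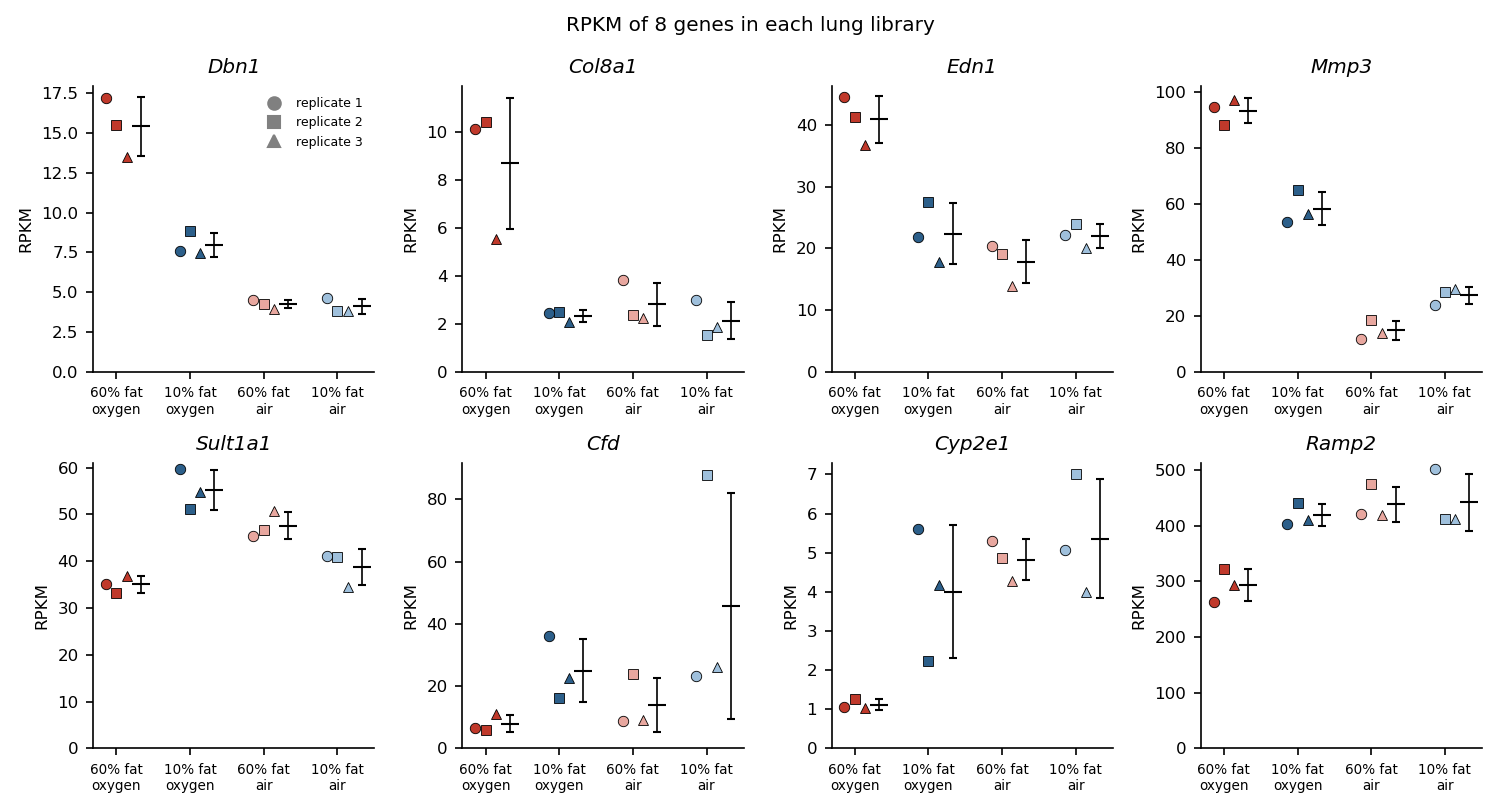
RPKM (y axes, from 0) of 8 genes in each library of the 4 groups (x axes), with symbols for replicate numbers 1 to 3 and a bar for the group mean ± SD (n = 3). Dbn1, Col8a1, Edn1 and Mmp3 are higher and Sult1a1, Cfd, Cyp2e1 and Ramp2 lower in the 60% fat than in the 10% fat lungs under oxygen, with no overlap between those groups. In all but Cfd and Ramp2 the naming rule required the lack of overlap.

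Several genes that process foreign chemicals were called lower on 60% fat with the block. Of 24 tested genes of cytochrome P450 and detoxification, 19 had a negative difference and 5 were called lower with the block. Wholly below the 10% fat lungs lay 11, and none lay wholly above (6.58% and 11.6% of all tested genes). The list's median was −0.16 under oxygen, against 0.03 for all genes, and 0.05 in room air. Sult1a1 (chromosome 7, 133816383 to 133819871) encodes a sulfotransferase that conjugates phenols. Its levels were 35.0, 33.1 and 36.9 RPKM in 60% fat lungs and 59.8, 51.2 and 54.8 RPKM in 10% fat lungs. The libraries within a diet were close and the diets well apart (1.57-fold lower, log2 −0.65 ± 0.09, adjusted p = 0.0565, blocked adjusted p = 0.0283).

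Cyp2e1 (chromosome 7, 147949730 to 147960876), a P450 gene known for its induction by alcohol and fasting in the liver, was at low level. It had 1.05, 1.27 and 1.03 RPKM in 60% fat lungs and 5.61, 2.24 and 4.17 RPKM in 10% fat lungs, with a wide spread on the 10% fat side (2.65-fold lower, log2 −1.41 ± 0.25, adjusted p = 0.118, blocked adjusted p = 0.0344). The flavin-containing monooxygenase gene Fmo1 (log2 −0.59, blocked adjusted p = 0.0344) and Cyp2f2, a P450 gene of club cells (log2 −0.46, blocked adjusted p = 0.0499), were also called with the block. Cyp2a5, which has close paralogs that could share reads, had 47.0, 47.5 and 58.9 RPKM in 60% fat lungs against 108, 77.3 and 88.1 RPKM in 10% fat lungs and was not called in the 12 libraries but with the block on the oxygen libraries alone (log2 −0.82 ± 0.28, adjusted p = 0.464, blocked adjusted p = 0.202, oxygen libraries alone adjusted p = 0.0186).

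The other genes named by rule as lower on 60% fat had varied roles. None of their groups overlapped, because the rule required this. Arrdc2, an arrestin-domain gene, had 9.60, 9.97 and 10.3 RPKM in 60% fat lungs against 15.7, 15.5 and 19.8 RPKM in 10% fat lungs (log2 −0.74 ± 0.11, adjusted p = 0.0575, blocked adjusted p = 0.0283). St6galnac2, a sialyltransferase gene, had 11.7, 11.02 and 12.5 RPKM in 60% fat lungs against 19.1, 15.7 and 20.8 RPKM in 10% fat lungs (log2 −0.63 ± 0.09, adjusted p = 0.0575, blocked adjusted p = 0.0147). Gpt, the gene of alanine aminotransferase, had 3.62, 3.33 and 3.87 RPKM in 60% fat lungs against 6.26, 5.45 and 5.74 RPKM in 10% fat lungs (log2 −0.62 ± 0.10, blocked adjusted p = 0.0224). In Arrdc2 and St6galnac2 the 60% fat libraries lay close together, and the 10% fat libraries were more spread. Prrt4 (log2 −0.99), Itgb1bp2 (−0.84), Sh3d21 (−0.62), Nipal3 (−0.44), Mxd4 (−0.41) and the phospholipid flippase gene Atp8a1 (−0.41) were called lower with the block as well. On the higher side the rule also named Disp2 (1.38), Ppm1j (1.07), Gna14 (0.62) and Prmt3 (0.50), called with the block, and Mamstr (0.74), Cpxm1 (0.50) and Mark1 (0.50), which were not called there but with the block on the oxygen libraries alone (adjusted p = 0.0329, 0.0411 and 0.0409).

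**Figure D3:**
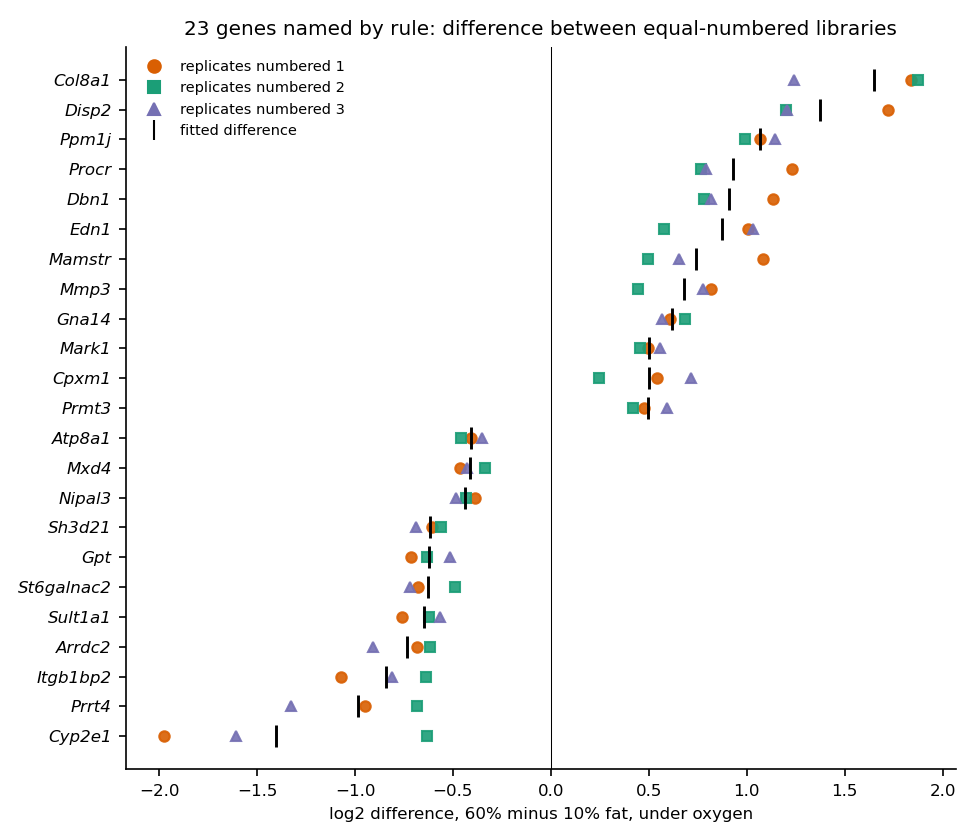
Log2 difference between 60% and 10% fat libraries of equal replicate number under oxygen (x axis) for 23 of the 24 genes named by rule (y axis), with a symbol per pair and a black bar for the fitted difference. All 3 pairs lie on the same side of 0 in each gene, which was fixed in advance, since the naming rule took only genes without overlap. Cyp2e1 has the widest spread between pairs.

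Secretory genes of the airway and alveolar epithelium had mostly lower values on 60% fat, with few calls. Scgb1a1, the gene of the main secretory protein of club cells, had 16354, 16631 and 14441 RPKM in 60% fat lungs and 24944, 21471 and 25154 RPKM in 10% fat lungs. The groups did not overlap, and the difference was not called in the 12 libraries (log2 −0.59 ± 0.27, adjusted p = 0.626, blocked adjusted p = 0.055). It was called with the block on the oxygen libraries alone (adjusted p = 0.0235) and was 0 to within rounding after quantile normalization, which sets the highest value of every library equal. Its share of all summed RPKM was 2.70 to 3.08% on 60% fat and 3.99 to 4.65% on 10% fat. Scgb3a2, a related secretoglobin gene, was called with the block, at 236, 193 and 170 RPKM in 60% fat lungs against 423, 253 and 288 RPKM in 10% fat lungs (log2 −0.66 ± 0.21, adjusted p = 0.425, blocked adjusted p = 0.0283). Of 14 club and secretory markers 10 had a negative difference and 4 lay wholly lower (6.58% of all tested genes), with a median of −0.19.

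Among 16 alveolar type 2 markers, 15 had a negative difference, yet the diets overlapped in every one, and the median was −0.20. Napsa, a protease gene that takes part in surfactant protein processing, was called with the block at 172, 102 and 155 RPKM in 60% fat lungs against 217, 153 and 211 RPKM in 10% fat lungs (log2 −0.45 ± 0.20, adjusted p = 0.609, blocked adjusted p = 0.0422). Sftpc had 9380, 8603 and 11296 RPKM on 60% fat and 13868, 10710 and 12663 RPKM on 10% fat (log2 −0.35 ± 0.22, adjusted p = 0.746, blocked adjusted p = 0.166). Sftpb, which encodes the surfactant protein B, had 2075, 1194 and 1420 RPKM in 60% fat lungs against 1940, 1597 and 1854 RPKM in 10% fat lungs (log2 −0.24 ± 0.19, adjusted p = 0.82). Neither surfactant gene separated the diets. The summed RPKM of the type 2 markers was 11542 to 14977 in 60% fat lungs and 14426 to 18566.5 in 10% fat lungs.

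Some heart muscle transcripts were called lower on 60% fat with the block. The pulmonary veins of mice are known to carry a sleeve of cardiac muscle. Of 14 tested cardiac markers 13 had a negative difference and 4 were called lower with the block, with a median of −0.48 under oxygen and 0.35 in room air. Their summed RPKM was 89.7, 38.9 and 87.0 in 60% fat lungs and 114, 65.7 and 145 in 10% fat lungs. The groups overlapped, and replicate 2 was the lowest of both diets. Myh6, the gene of the α myosin heavy chain, had 2.16, 0.291 and 1.49 RPKM in 60% fat lungs against 4.34, 1.03 and 5.68 RPKM in 10% fat lungs (log2 −1.15 ± 0.50, adjusted p = 0.577, blocked adjusted p = 0.0283). The other 3 were Myl7 (log2 −0.96), Tnnt2 (−0.83) and Csrp3 (−0.86), and the diets overlapped in all 4. Itgb1bp2, named above, encodes the striated-muscle protein melusin. The part that the amount of cardiac muscle in a sample plays in these genes was not tested.

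Genes of cholesterol synthesis and uptake had mostly lower values on 60% fat, and no member was called in the 12 libraries. Cells make cholesterol from acetyl-CoA in a long chain of enzymes whose genes are switched on by the factor SREBP-2 when sterols run low. Of 23 tested genes 22 had a negative difference, 7 lay wholly lower and none wholly higher (6.58% and 11.6% of all tested genes). The median was −0.34 under oxygen, against 0.03 for all genes, and −0.06 in room air. An unadjusted p under 0.05 was reached by 9 of the 23, all lower, and no member had a blocked adjusted p under 0.05. The block on the oxygen libraries alone called 2 members lower, Pmvk and Lss. The summed RPKM of the list was 480, 573 and 744 in 60% fat lungs and 797, 726 and 814 in 10% fat lungs. Replicates 1 and 2 of the 60% fat lungs lay below all 10% fat lungs, and replicate 3 lay among them. The median differences of the pairs numbered 1, 2 and 3 were −0.68, −0.30 and −0.0045.

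By order in the pathway, Pmvk, the phosphomevalonate kinase gene, had 70.2, 65.3 and 98.3 RPKM in 60% fat lungs against 126, 107 and 165 RPKM in 10% fat lungs (log2 −0.76 ± 0.30, adjusted p = 0.548, blocked adjusted p = 0.212, oxygen libraries alone adjusted p = 0.00521). Idi1, whose product makes the isoprene unit dimethylallyl diphosphate, had 21.7, 25.2 and 37.0 RPKM in 60% fat lungs against 45.8, 39.4 and 37.9 RPKM in 10% fat lungs (log2 −0.58 ± 0.16, adjusted p = 0.351). In Pmvk and Idi1 the diets did not overlap, by a narrow margin in Idi1. Lss, the lanosterol synthase gene, which closes the sterol rings, had 22.6, 21.9 and 30.6 RPKM in 60% fat lungs against 36.1, 33.6 and 36.6 RPKM in 10% fat lungs (log2 −0.51 ± 0.12, adjusted p = 0.278, blocked adjusted p = 0.0798, oxygen libraries alone adjusted p = 0.0326). Insig1, which encodes a protein that holds back SREBP when sterols are plentiful and is itself a target of SREBP, had 18.1, 26.1 and 36.4 RPKM in 60% fat lungs against 40.5, 36.5 and 39.7 RPKM in 10% fat lungs (log2 −0.58 ± 0.18, adjusted p = 0.42). The gene of SREBP-2 itself, Srebf2, differed least among these, at 44.6, 42.3 and 50.2 RPKM in 60% fat lungs against 52.0, 47.4 and 48.7 RPKM in 10% fat lungs (log2 −0.11 ± 0.07, adjusted p = 0.762).

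**Figure D4:**
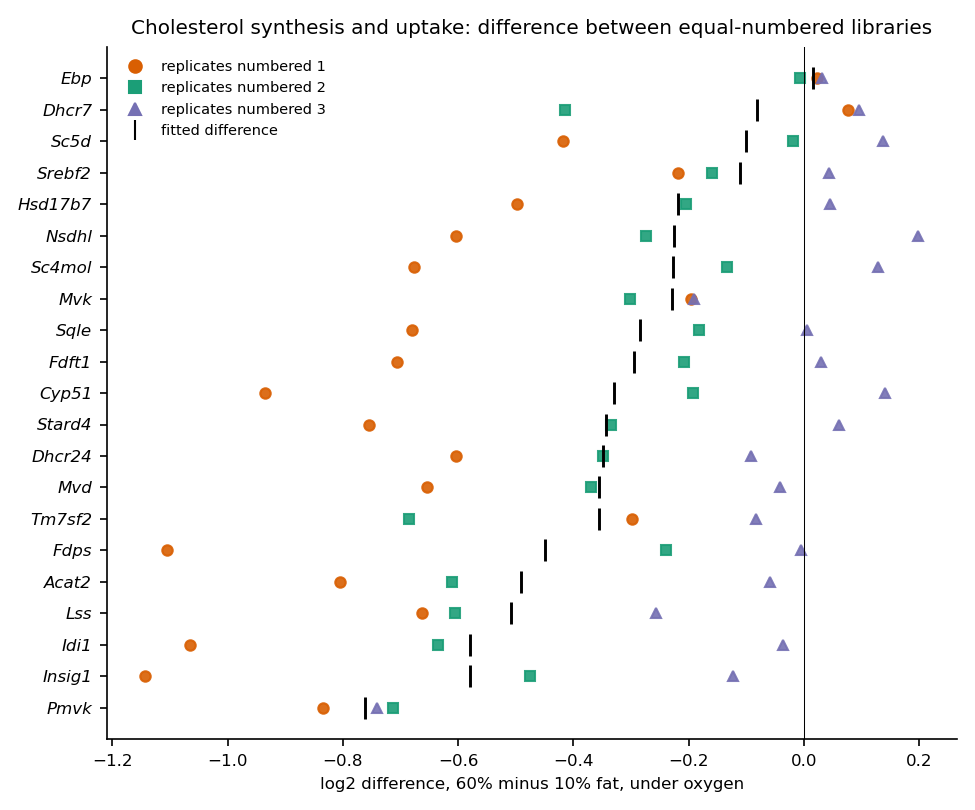
Log2 difference between 60% and 10% fat libraries of equal replicate number under oxygen (x axis) for 21 of the 23 tested genes of cholesterol synthesis and uptake (y axis), with a symbol per pair and a black bar for the fitted difference. The pair numbered 1 has the lowest value in most genes, the median of the pair numbered 3 over all 23 is −0.0045, and in Pmvk the pairs lie together between −0.83 and −0.71.

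The promoters of 3 of the cholesterol genes whose groups did not overlap are shown, since members of this pathway are known to share binding sites for NF-Y beside those of SREBP. NF-Y binds the box CCAAT, which reads ATTGG on the other strand. The sequences come from RefSeq on GRCm38.p6, are given on the + strand, 5′ to 3′, and carry the box in capitals as read on that strand.
Lss, chr10:76531515-76531575: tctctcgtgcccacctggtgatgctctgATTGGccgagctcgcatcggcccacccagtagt
Insig1, chr5:28071168-28071228: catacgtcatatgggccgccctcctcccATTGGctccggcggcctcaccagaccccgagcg
Idi1, chr13:8885533-8885593: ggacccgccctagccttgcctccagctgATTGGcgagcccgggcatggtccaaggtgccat
The box starts 62 bases before the annotated start in Lss, 216 in Insig1 and 45 in Idi1. Windows from 250 bases before to 50 after the start were found for 15 of the 23 genes by symbol, and 14 of them held CCAAT on either strand, Acat2 being without it. Of all 27025 genes with a window 41.1% held it in at least 1 window, and of all 32851 windows 37.4%. A match is a description of the letters and not a bound site.

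Other genes of fat handling differed less as lists. Of 24 genes of fatty acid synthesis 11 were positive and 13 negative, with a median of −0.03. Fasn, the fatty acid synthase gene, had 20.4, 17.0 and 25.0 RPKM in 60% fat lungs against 30.4, 24.3 and 25.5 RPKM in 10% fat lungs (log2 −0.37 ± 0.13, adjusted p = 0.481, blocked adjusted p = 0.133). Srebf1 (log2 0.03 ± 0.08) and the desaturase gene Scd1 (0.04 ± 0.16) had nearly the same levels on both diets. In 32 genes of fatty acid oxidation and PPAR targets the median was −0.06, no member was called in the 12 libraries and 2 were called lower with the block on the oxygen libraries alone.

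Adipocyte genes had lower values on 60% fat as well. Of 20 tested, 18 had a negative difference, 7 lay wholly lower (6.58% of all tested genes) and 2 were called with the block. The list's median was −0.15 under oxygen and 0.00142 in room air. Cfd (chromosome 10, 79353597 to 79355401) encodes adipsin, a complement protease secreted by fat cells. It had 6.53, 6.02 and 10.99 RPKM in 60% fat lungs and 36.1, 16.2 and 22.7 RPKM in 10% fat lungs. No 60% fat library reached the lowest 10% fat library (3-fold lower, log2 −1.58 ± 0.50, adjusted p = 0.425, blocked adjusted p = 0.0283). In room air the difference was of the same size (log2 −1.56 ± 0.50, adjusted p = 0.231, blocked adjusted p = 0.0133), and the interaction was −0.03 ± 0.70 (adjusted p = 0.993). Pnpla2, the gene of adipose triglyceride lipase, had 56.3, 56.7 and 70.4 RPKM in 60% fat lungs against 81.7, 70.6 and 100.3 RPKM in 10% fat lungs (log2 −0.45 ± 0.12, blocked adjusted p = 0.0283).

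Acute-phase genes and the markers of B cells and alveolar macrophages had mostly higher values on 60% fat, with few calls. Other immune lists did not all follow. The median was −0.16 for neutrophil, −0.03 for plasma cell and −0.11 for mast cell and basophil markers, but 0.27 for NK and cytotoxic and 0.17 for dendritic cell markers. Saa3 (chromosome 7, 53967367 to 53971046), which encodes an acute-phase serum amyloid A protein made in inflamed tissue, was named after its values were seen. It had 108, 83.5 and 103 RPKM in 60% fat lungs, against 32.9, 32.3 and 32.5 RPKM in 10% fat lungs. The 10% fat libraries were almost equal and every 60% fat library was at least 2 times as high. The mean was 98.0 ± 12.8 RPKM in 60% fat lungs and 32.6 ± 0.287 RPKM in 10% fat lungs (SD, n = 3 each), a 2.96-fold difference (log2 1.57). With the spread of all 12 libraries it was not called (SE 1.10, adjusted p = 0.782, blocked adjusted p = 0.201), and with the 6 oxygen libraries alone it was the single gene called without the block (SE 0.093, adjusted p = 0.00134, with the block adjusted p = 0.0013). In room air Saa3 varied widely, at 4.94, 3.67 and 37.9 RPKM on 60% fat and 2.06, 22.2 and 131 RPKM on 10% fat. Saa3 belongs to a family of similar genes, and the sources used here do not say how shared reads were counted.

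Of 23 tested acute-phase and innate effector genes 17 had a positive difference and 7 lay wholly higher (11.6% of all tested genes). The list's median was 0.23 under oxygen and −0.19 in room air. Timp1, an inhibitor of matrix proteases, had 161, 159 and 157 RPKM in 60% fat lungs against 102, 99.5 and 75.5 RPKM in 10% fat lungs (log2 0.79 ± 0.22, adjusted p = 0.373, blocked adjusted p = 0.127). The 60% fat libraries were close together and above all 10% fat libraries, and the gene was not called in the 12 libraries but with the block on the oxygen libraries alone (adjusted p = 0.0124).

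B cell markers were the list with the highest median, 0.39 under oxygen, with 21 of 22 positive and 15 wholly higher (11.6% of all tested genes). No member was called in the 12 libraries with or without the block. The block on the oxygen libraries alone called 4 members higher, Cd79a, Faim3, Fcrla and Ms4a1. Their summed RPKM was 164, 155 and 154 in 60% fat lungs and 109, 146 and 106 in 10% fat lungs. Ms4a1, the gene of CD20, had 5.83, 6.17 and 4.03 RPKM in 60% fat lungs against 2.98, 3.98 and 2.72 RPKM in 10% fat lungs (log2 0.64 ± 0.28, adjusted p = 0.571, blocked adjusted p = 0.103, oxygen libraries alone adjusted p = 0.0287). In room air the list's median was 1.12, and 16 members were called higher there with the block. Of 16 alveolar macrophage markers 13 were positive, 6 wholly higher and 2 wholly lower (11.6% and 6.58% of all tested genes). The median of these markers was 0.28 under oxygen and −0.27 in room air. The median differences of the pairs numbered 1, 2 and 3 were 0.05, 0.07 and 0.55, so that the pair numbered 3 stood apart. The list was split in its blocked calls, since it holds Car4, called lower, and Fabp1, called higher. The fatty acid binding protein gene Fabp1 had 4.63, 4.89 and 2.55 RPKM in 60% fat lungs against 2.32, 2.33 and 1.56 RPKM in 10% fat lungs (log2 0.79 ± 0.26, adjusted p = 0.445, blocked adjusted p = 0.0399). In room air Fabp1 was also called higher on 60% fat with the block (log2 1.03 ± 0.26, adjusted p = 0.137, blocked adjusted p = 0.0108).

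Neutrophil markers varied widely within each diet. Their summed RPKM was 816, 461 and 1020 in 60% fat lungs and 496, 371 and 2196 in 10% fat lungs, replicate 3 of the 10% fat lungs being the highest. The pair medians were 0.68, 0.38 and −1.47 for the numbers 1, 2 and 3. The list's median was −0.16. The granule gene Camp was highest in replicates 1 and 3 of the 60% fat lungs, with 12.3, 1.72 and 13.2 RPKM in 60% fat lungs against 0.61, 0.87 and 1.38 RPKM in 10% fat lungs (log2 2.37 ± 1.13, adjusted p = 0.646, blocked adjusted p = 0.305, oxygen libraries alone adjusted p = 0.0476).

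Stress response lists held few calls between the diets. Of 29 p53 targets 18 were positive, against 7789 of all 13324 tested genes. Wholly higher were 8 and wholly lower 3 (11.6% and 6.58% of all tested genes), with a list median of 0.13. The RNA-binding protein gene Zmat3 and the death effector gene Bax were called higher with the block. Zmat3 had 20.6, 18.3 and 17.6 RPKM in 60% fat lungs against 15.2, 14.1 and 13.4 RPKM in 10% fat lungs (log2 0.39 ± 0.09, adjusted p = 0.27, blocked adjusted p = 0.0499). Bax had 214, 203 and 184 RPKM in 60% fat lungs against 176, 170 and 143 RPKM in 10% fat lungs (log2 0.30 ± 0.09, adjusted p = 0.429, blocked adjusted p = 0.0498). Both blocked adjusted p-values lay just inside the threshold.

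NRF2 switches on antioxidant genes. Of its 35 tested targets 27 were positive and 8 wholly higher (11.6% of all tested genes), with a median of 0.10. Esd had 305, 324 and 287 RPKM in 60% fat lungs against 238, 255 and 243 RPKM in 10% fat lungs (log2 0.31 ± 0.08, adjusted p = 0.351, blocked adjusted p = 0.0867, oxygen libraries alone adjusted p = 0.0232). Immediate early genes, which respond within minutes to signals and to handling of tissue, had 19 of 23 negative differences and a median of −0.20, and Klf4 had 93.7, 103 and 105 RPKM in 60% fat lungs against 134, 141 and 179 RPKM in 10% fat lungs (log2 −0.57 ± 0.20, adjusted p = 0.478, blocked adjusted p = 0.242, oxygen libraries alone adjusted p = 0.017). Cytosolic heat shock genes had 18 of 23 positive differences and a median of 0.16, with −0.53 in room air. None of the genes in these 3 lists was called in the 12 libraries with or without the block. The block on the oxygen libraries alone called 4 NRF2 targets higher, 4 immediate early genes lower and 4 heat shock genes higher.

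**Figure D5:**
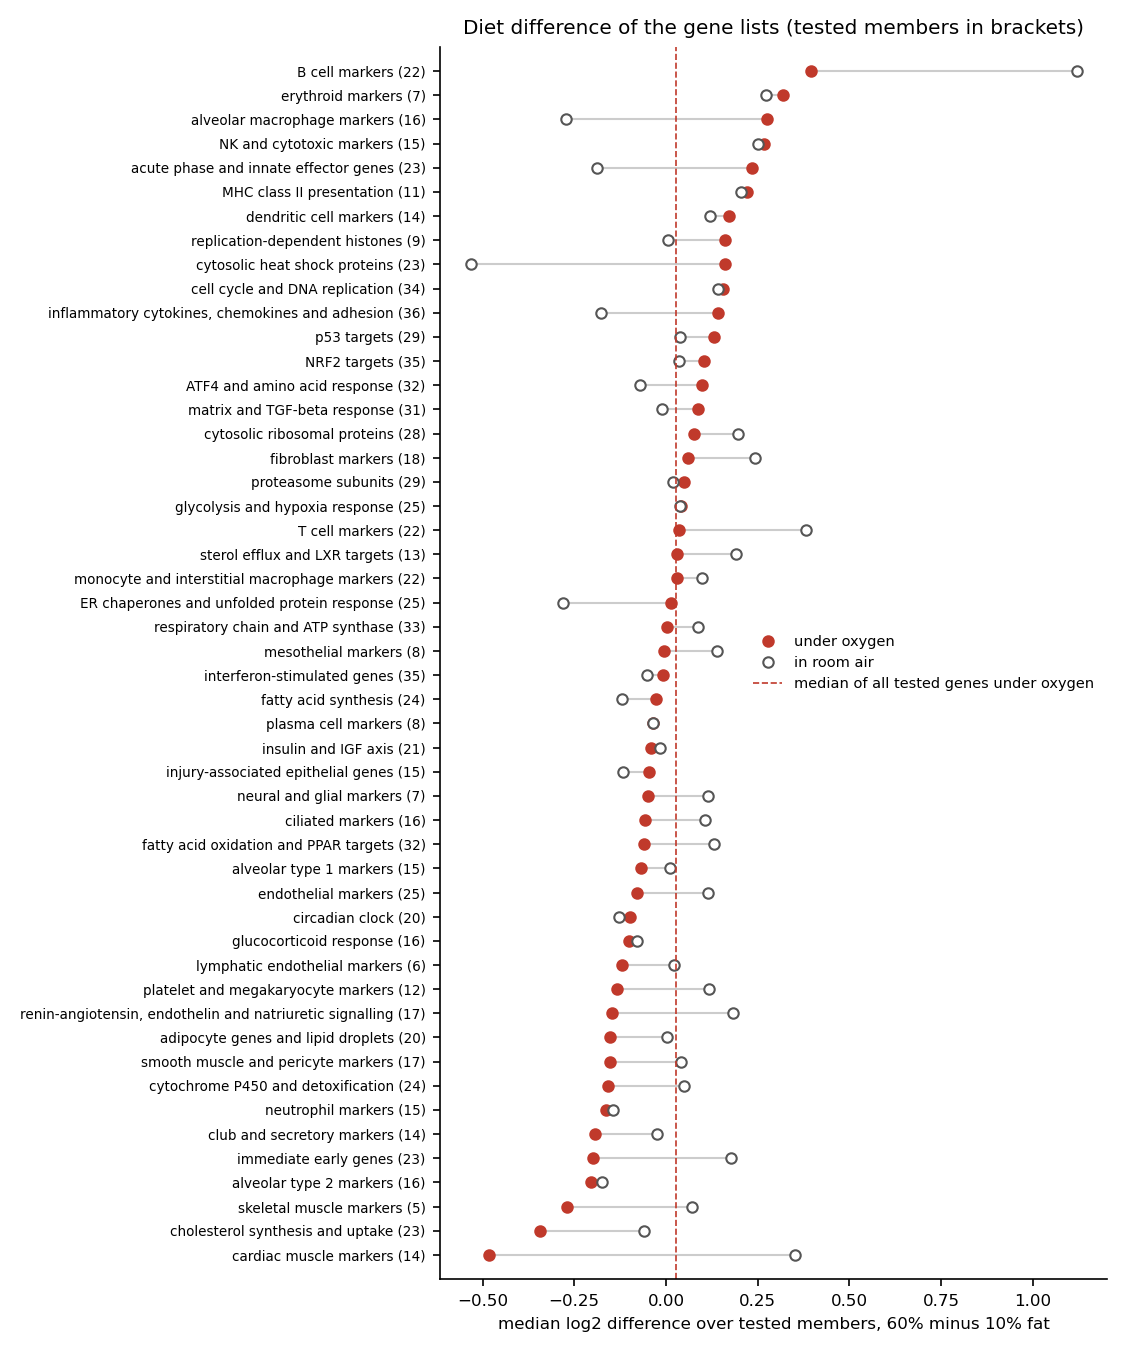
Median log2 difference between 60% and 10% fat (x axis) over the tested members of the 50 gene lists with at least 5 of them (y axis, number in brackets), under oxygen (filled) and in room air (open), with the median of all tested genes under oxygen as a dashed line. Cardiac muscle and cholesterol genes lie lowest and B cell markers highest under oxygen, and the cardiac, heat shock and alveolar macrophage lists lie on opposite sides of 0 in the 2 exposures.

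The diet differences under oxygen and in room air were compared last. Over the 13324 genes the log2 differences of the 2 exposures, which share no library, had a Pearson's r of 0.0777 and a Spearman's rho of −0.00796, given as a description since genes are not independent. In room air 20 genes (0.15%) were called, and 466 (3.5%) with the block. Of the 102 genes called under oxygen with the block, 10 were also called in room air with the block, 7 of them in the same direction. The interaction, which is the diet difference under oxygen minus that in room air, was called in 5 genes (0.0375%) and with the block in 243 (1.82%). Among those 243 were 57 of the 102. Part of this overlap is built in, since the interaction contains the oxygen difference by which the 102 were called.

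Disp2 (chromosome 2, 118605454 to 118620911), a gene related to the Hedgehog release factor Dispatched, showed the largest difference of the 5. Under oxygen it had 7.25, 6.62 and 4.38 RPKM on 60% fat and 1.85, 2.60 and 1.62 RPKM on 10% fat (log2 1.38 ± 0.22, adjusted p = 0.0575, blocked adjusted p = 0.0283). In room air the order was the opposite, at 3.50, 4.19 and 2.67 RPKM on 60% fat and 8.95, 7.16 and 11.1 RPKM on 10% fat (log2 −1.27 ± 0.22, adjusted p = 0.0488). The interaction was 2.65 ± 0.31 (adjusted p = 0.0198, blocked adjusted p = 0.0173). Mmp3 also went the other way in room air, at 11.8, 18.6 and 13.95 RPKM on 60% fat and 24, 28.4 and 29.6 RPKM on 10% fat (interaction 1.56 ± 0.20, adjusted p = 0.024). Sult1a1 was lower on 60% fat under oxygen, while in room air it had 45.4, 46.6 and 50.8 RPKM on 60% fat and 41.2, 40.8 and 34.4 RPKM on 10% fat (interaction −0.94 ± 0.13, adjusted p = 0.0282). Lyve1, a marker of lymphatic endothelium, and Slc7a1, a carrier of cationic amino acids, were the other 2, and their diet difference was called in room air and not under oxygen.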

How the data were processed

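RNA of 12 mouse lung samples, 3 in each of 4 groups, had been sequenced. Per the submitters' processing notes, bcl2fastq 2.19 and TopHat2 2.0.11 were used, with mm8 and mm9 both named as builds. The deposited table holds RPKM values made by the authors, and the program that computed them is not named in the sources at hand. The 208 entries marked as low data were left out, 85 failed values were treated as missing, and a gene needed at least 2 values in each group. Whole reads were not recovered, so no count test was run, and the rough depths of 21.1 to 28.3 M reads over all libraries rest on an assumed length offset chosen on these data.

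Values were tested as log2(RPKM + 0.5) with limma 3.58.1 in R 4.3.3, using 4 group means, all 12 libraries, a variance trend and two-sided moderated tests with Benjamini-Hochberg adjustment over 13324 genes. All adjusted p-values in the text, blocked ones included, come from limma. The fit was tested on simulated data. Errors after ± are standard errors for log2 differences and SDs for RPKM.

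Labels number the replicates 1 to 3 in each group. Over 13310 genes the deviations of equal-numbered libraries from their group means had a Pearson's r of 0.297, 0.293 and 0.367 under oxygen and 0.486, 0.348 and 0.386 in room air, against −0.304 to 0.0102 for unequal numbers under oxygen. The deviations within a group cancel out by construction, so positive values for equal numbers lower those for unequal numbers. The gap between them is therefore partly built in. The labels do not say what a number marks. The block fits the number within each exposure.

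Named by rule were, in each direction, the 12 called genes of largest change without overlap, filled up with non-overlapping genes of smallest p, then the 3 members of smallest p in each of 52 gene lists and 6 set genes. Other genes were named after their values were seen. The lists and members were chosen with earlier results of these data known. Alternatives were other pseudocounts, filters, scalings and variance settings, library weights, fewer libraries and the block. Python 3.11.15, pandas 2.3.3, numpy 2.4.6 and matplotlib 3.10.9 served for joins and plots. A few genes are not reported here, and counts over lists include them.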

Additional observations from a re-analysis of the deposited data

Results flagged for a closer look

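The diet difference under oxygen differed from that in room air in 5 genes by limma's interaction test, and these 5 deserve a closer look. The interaction is the log2 difference between 60% and 10% fat under oxygen minus that in room air. It was 2.65 in Disp2 (adjusted p = 0.0198), 1.56 in Mmp3 (adjusted p = 0.024) and −0.944 in Sult1a1 (adjusted p = 0.0282), whose library values are given above. In Disp2 and Mmp3 the 60% fat libraries lay wholly above the 10% fat libraries under oxygen and wholly below them in room air.

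Lyve1 had 737, 722 and 779 RPKM on 60% fat and 651, 711 and 756 RPKM on 10% fat under oxygen, with overlap. In room air it had 71.7, 99.0 and 88.5 RPKM on 60% fat and 197, 171 and 228 RPKM on 10% fat, so that its interaction was 1.28 (adjusted p = 0.0309). Slc7a1 had 23.5, 23.8 and 24.4 RPKM on 60% fat and 20.2, 22.3 and 21.5 RPKM on 10% fat under oxygen. In room air it had 3.87, 3.68 and 4.03 RPKM on 60% fat and 5.89, 5.64 and 6.02 RPKM on 10% fat, and its interaction was 0.702 (adjusted p = 0.0483). In both genes every oxygen library stood above every room-air library. All 5 interactions were also called with the block, and leaving out 1 library gave between 0 and 45 interaction calls.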

How the results depend on the processing

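Under oxygen the count of called genes was 1, and it was 0 with a pseudocount of 0.1, with quantile normalization and without a variance trend. It was 2 with robust moderation (Dbn1 and Sult1a1), 40 with sample weights and 102 with replicate numbers as a block. It stayed at 1 without a filter (then Ccl26) and with the oxygen libraries alone (then Saa3). Leaving out 1 library gave 0 to 3 calls under oxygen, 2 to 353 in room air (20 with all libraries) and 0 to 45 for the interaction (5 with all libraries). In room air the count was 12 without a filter, 37 with median-ratio scaling, 66 with quantile normalization, 441 with sample weights, 1 with the room-air libraries alone and 466 with the block. The interaction count was 146 with sample weights and 243 with the block. Further alternatives were chosen after seeing the data: the block gave 106 calls under oxygen with median-ratio scaling, 87 with quantile normalization and 385 with the oxygen libraries alone, and 2, 9 and 4 without the libraries numbered 1, 2 and 3. Why these counts differ was not tested. The adjusted p of Dbn1 ran from 0.00835 to 0.269 over the alternatives, and its log2 difference from 0.83 to 1. Of 177 named genes 7 changed sign under some alternative, none of them called, and Sftpc was at 6.59e-05 and Scgb1a1 at 0 to within rounding with quantile normalization. The medians of the lists described in the report kept their sign under both scalings, which moved the median of all genes to 0.00668 and 0.00438. With 3 libraries a group, the median SE was 0.12 without the block and 0.0896 with it, so small differences were hard to call. The smallest log2 difference called with the block was 0.299. Large differences could also miss a call, as Col8a1 (log2 1.65) did without the block.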

Other observations

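Several gene lists not described above had differences mostly of one sign under oxygen, without a call in the 12 libraries or with the oxygen libraries alone, and their size varied between the pairs of equal replicate number. All 11 genes of MHC class II presentation had a positive difference, with a median of 0.22, and 2 of them lay wholly higher on 60% fat (11.6% of all tested genes). The median differences of the pairs numbered 1, 2 and 3 were 0.04, −0.03 and 0.54, the pair numbered 3 standing apart. Of 34 cell cycle and DNA replication genes 32 were positive, against 7789 of all 13324 tested genes, with a list median of 0.15. Wholly higher were 4, near the 11.6% of all tested genes, and the list's pair medians were 0.06, 0.14 and 0.30. Of 12 platelet and megakaryocyte markers 11 were negative, with a median of −0.13, and the diets overlapped in all 12. Their pair medians were 0.17, 0.21 and −0.86, so only the pair numbered 3 lay below 0. The summed RPKM of erythroid markers was 1111, 1223 and 1828 in 60% fat lungs and 270, 378 and 1547 in 10% fat lungs, and replicate 3 was the highest of both diets.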
